A study of Mus musculus with 12 samples.

Results

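The ribosome footprints of RAW264 cells given lipopolysaccharide (LPS) together with dexamethasone (DEX) were compared with those of untreated cells. The comparison held 4 of the 12 libraries of the study, 2 LPS+DEX and 2 basal, and all 9621 listed genes were considered. Testing required the CPM that 10 reads make at the median depth (6.30 CPM) in 2 or more of the 4 libraries. That held for 8742 genes, and the other 879 were not tested. RAW264 is an established mouse macrophage line. The study sequenced polyadenylated mRNA and ribosome-protected fragments (footprints) on an Ion PGM under 3 treatments, with 2 independent biological replicates of each. Basal cells received neither agent. LPS+DEX cells received LPS at 100 ng/ml with DEX at 10 µM for 30 min, and LPS cells received LPS alone at 100 ng/ml for 30 min. Cells of every group, basal included, were exposed to cycloheximide at 100 µg/ml ahead of RNA extraction. The labels name no vehicle for DEX and no group with DEX alone, so in the comparison with basal cells the contributions of LPS and of DEX cannot be told apart.

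LPS is a component of the outer membrane of Gram-negative bacteria that macrophages sense through the receptor TLR4, whose adaptors activate NF-kB and the MAP kinases. Within minutes this pathway switches on a first wave of genes: secreted signals such as TNF, short-lived transcription factors of the AP-1 family, and proteins that feed back to shut the pathway off. DEX is a synthetic ligand of the glucocorticoid receptor, a transcription factor known for restraining inflammatory genes and for inducing inhibitors such as the phosphatase DUSP1. A footprint is the stretch of mRNA that a ribosome shields from nuclease, so footprint numbers follow both how much of an mRNA is present and how many ribosomes it carries. Cycloheximide stalls cytosolic ribosomes, but not the ribosomes inside mitochondria.

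Values are given as CPM, the reads of a gene scaled to a common library total with no scaling by gene length, and fold changes as differences of log2(CPM + 1) with their standard error (SE). The 4 footprint libraries held 1310291 and 1520612 reads (basal) and 1653342 and 1833560 reads (LPS+DEX), and 3 reads were worth 1.64 to 2.29 CPM. The 2 LPS libraries were shallower, with 829415 and 821946 reads, and they entered no fit of LPS+DEX against basal except as a named alternative. Across the tested genes the Spearman correlation of the 2 libraries of a group was 0.966 (basal) and 0.979 (LPS+DEX). The standard deviation of their log2 difference was 0.44 for the basal pair and 0.34 for the LPS+DEX pair. Macrophage identity was clear in the footprints. Cd68 was at 1119 and 1183 CPM, the growth factor receptor Csf1r at 1104 and 1060 CPM and lysozyme, Lyz2, at 2061 and 2340 CPM in the basal libraries. Of 36 defining genes of other cell types, 4 were among the listed genes. Their footprints summed to 176 and 140 CPM in basal and 153 and 161 CPM in LPS+DEX cells, most of it from the collagen Col3a1. The keratin Krt7 and renin, Ren1, lay at or under 1.97 CPM in these 4 libraries.

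Footprints of 6 of 13 cytokine and chemokine genes and 9 of 30 immediate early genes were called higher with LPS+DEX than in basal cells. So were those of 4 of 23 genes of NF-kB subunits and their regulators. Called lower were 8 of 13 mitochondrially encoded genes and 28 of 59 histones, whose near-identical copies share reads. Limma called 158 genes higher, which is 1.81% of the genes tested, and 253 lower, which is 2.89% (limma-trend, Benjamini-Hochberg adjusted p under 0.05 over all tested genes, two-sided). Of the 411 called genes, 60 rose by more than 1 on the log2 scale and 72 fell by more than 1. The median change of all tested genes was -0.05. In all 411 called genes the basal and LPS+DEX libraries did not overlap, a condition that 50.6% of the tested genes met. The larger number of lower calls depended on the scaling, since 207 were higher and 206 lower when libraries were scaled by their median ratio. Each library also weighed on the number of calls. Without LPS+DEX replicate 1, 30 genes were called higher and 65 lower, and without LPS+DEX replicate 2, 35 and 58. Without basal replicate 1, 392 and 467 were called, and without basal replicate 2, 359 and 467. Of the 158 genes called higher, 24 passed in all 4 of these fits, as did 43 of the 253 called lower, and 0 changed sign in any of them.

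**Figure D1:**
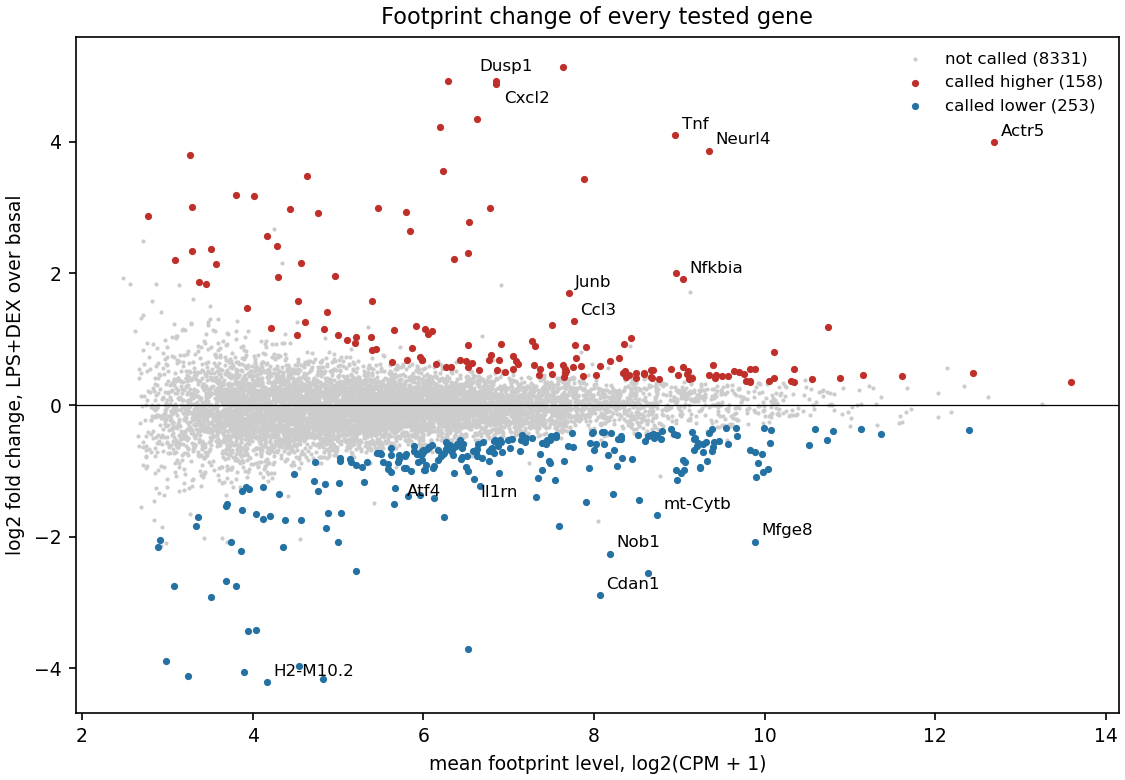
Each point is 1 tested gene, with its mean footprint level on the x axis (log2 of CPM + 1) and its log2 fold change of LPS+DEX over basal on the y axis. The 158 genes called higher are red and the 253 called lower are blue; Tnf, Cxcl2 and Dusp1 lie above 4 and Nob1 and Mfge8 below -2.

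Secreted signals of the first wave rose, some by more than an order of magnitude. Of the 13 tested cytokine and chemokine genes, 6 rose and 2 fell, with a median log2 change of 0.60 against -0.05 over all tested genes. Tnf (ENSMUSG00000024401), which encodes the central inflammatory cytokine TNF, had footprints of 58.8 and 48 CPM in the basal libraries and 1057 and 813 CPM in the LPS+DEX libraries. Both treated libraries lay far above both basal ones, a log2 fold change of 4.10 ± 0.14 (SE, limma adjusted p = 7.8e-09). Cxcl2 (ENSMUSG00000058427), a chemokine that attracts neutrophils, went from 7.63 and 5.26 CPM to 284 and 162 CPM, a change of 4.87 ± 0.26. The treated libraries differed from each other, and both lay far above both basal ones. Its relative Cxcl3 had 0 and 0.658 CPM in basal cells, which is 1 read in the 2 libraries together, and 16.3 and 17.5 CPM with LPS+DEX. The ratio of the pooled reads was 47.9, with a 95% counting interval of 8.27 to 1924.

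The macrophage inflammatory chemokines Ccl3 and Ccl4, which recruit immune cells, rose less and from a higher level. Ccl3 went from 111 and 143 to 326 and 285 CPM (1.27 ± 0.14), and Ccl4 from 96.9 and 120 to 278 and 228 CPM (1.22 ± 0.14). Ccl3 and Ccl4 overlap in the RefSeq annotation, so reads of the shared stretch could not be assigned to 1 of them with certainty. Tnfsf9, the ligand of the co-stimulatory receptor 4-1BB, rose by 1.16 ± 0.20 (0.97 without LPS+DEX replicate 1, where it no longer passed, and Cxcl3 did not pass without either LPS+DEX library, at 3.84 and 3.75). The monocyte chemokine Ccl2 had 45.8 and 71.7 CPM in basal and 75.6 and 100 CPM in LPS+DEX cells and did not pass (0.60 ± 0.21, limma adjusted p = 0.13). Its change was 0.91 in the fit that left out basal replicate 2, where it passed.

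Il1rn (ENSMUSG00000026981) and Spp1 went the other way. Il1rn encodes the interleukin 1 receptor antagonist, which blocks interleukin 1 signalling. Its footprints fell from 116 and 148 CPM to 64.1 and 55.6 CPM (-1.12 ± 0.16), with the groups apart. LPS alone had 188 and 192 CPM, above both basal libraries, so the 3 treatments did not overlap. Osteopontin, Spp1, an adhesive secreted protein, fell from 1128 and 1373 to 779 and 708 CPM (-0.74 ± 0.11), while LPS alone had 1407 and 1346 CPM. The Spp1 call did not hold without LPS+DEX replicate 2 (-0.68).

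Among genes of NF-kB and its regulators, some IkB genes and Tnfaip3 rose, while the subunits did not pass. Of 23 tested genes of this list, 4 rose and 0 fell, with a median of -0.09. None of the 4 was a subunit, and each was called in all 4 leave-one-out fits. Nfkbia (ENSMUSG00000021025), which encodes IkB-alpha, the protein that holds NF-kB in the cytoplasm, went from 217 and 226 CPM to 859 and 813 CPM, a change of 1.91 ± 0.10 (limma adjusted p = 1.2e-07). The groups were far apart beside the spread within each, and LPS alone stood between them at 500 and 523 CPM. Nfkbiz, an atypical nuclear IkB protein, rose from 7.63 and 5.26 to 161 and 115 CPM (4.22 ± 0.24). Nfkbid, another nuclear IkB protein, rose from 6.11 and 4.60 to 49 and 44.7 CPM (2.92 ± 0.28). Tnfaip3, which encodes the ubiquitin-editing enzyme A20, rose from 11.4 and 19.1 to 107 and 88.9 CPM (2.64 ± 0.23). The NF-kB subunit Rela measured -0.45 ± 0.20 (58 and 51.3 against 33.3 and 47.4 CPM, limma adjusted p = 0.24), and the inhibitor Nfkbie had 8.4 and 9.21 against 8.47 and 6.54 CPM (-0.21 ± 0.39).

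Promoters of the induced genes are shown for the sites that their known regulators read. RefSeq promoter windows (GRCm38.p6, 250 bases before to 50 after an annotated start) existed for 47 of the 62 genes named by size of change or in the fixed set. NF-kB sites were searched as GGACTTTCC, GGGATTTCC, GGAATTTCC, GGGCTTTCC and GGGATTCCC on both strands, and capitals mark the match. Distances count back from the start, 5′ to 3′ along the gene.
Cxcl2, chr5:90903778-90903836, plus strand, match 96 bases before the start: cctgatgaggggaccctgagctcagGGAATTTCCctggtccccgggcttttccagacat
Cxcl3, chr5:90786004-90786062, plus strand, match 72 bases before the start: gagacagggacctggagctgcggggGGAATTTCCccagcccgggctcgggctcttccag
Nfkbia, chr12:55492792-55492850, minus strand, match 178 bases before the start: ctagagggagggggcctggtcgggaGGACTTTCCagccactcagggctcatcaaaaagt
Tnfaip3, chr10:19015411-19015459, minus strand, match 24 bases before the start: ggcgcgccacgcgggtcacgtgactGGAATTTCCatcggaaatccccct
Ier3, chr17:35821549-35821607, plus strand, match 139 bases before the start: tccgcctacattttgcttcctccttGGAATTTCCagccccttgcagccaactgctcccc
A match was present in 10 of the 133 promoter windows of genes called higher (7.52%), in 6 of 194 of genes called lower (3.09%), in 2.21% of the windows of all tested genes, and in 605 of all 32851 windows (1.84%). Tnf had no match to these letters in its window. A match is a description of letters and not of a bound site.

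Immediate early genes encode transcription factors and effectors whose transcription needs no new protein synthesis. Of 30 tested members 9 rose and 0 fell, with a median of 0.46, and 23 of the 30 values were above 0. Fos, an AP-1 subunit, went from 2.29 and 3.95 CPM, 3 and 6 reads, to 36.9 and 52.4 CPM (3.48 ± 0.35). Its partner Jun went from 35.1 and 25 to 158 and 146 CPM (2.32 ± 0.18), and Junb (ENSMUSG00000052837) from 111 and 84.8 to 330 and 304 CPM (1.70 ± 0.14). For these 3 AP-1 genes LPS alone lay between basal and LPS+DEX, at 20.5 and 25.5 CPM for Fos, 98.9 and 112 CPM for Jun and 251 and 263 CPM for Junb. Ier2 rose by 2.78 ± 0.23 and the survival gene Ier3 by 2.99 ± 0.22, and Btg2, an antiproliferative gene, rose from 16 and 8.55 to 106 and 87.8 CPM (2.93 ± 0.26). Ier3 was the exception to the order of treatments, with 106 and 103 CPM under LPS alone against 84.1 and 71.4 CPM under LPS+DEX. These 6 genes were called in every leave-one-out fit, and without basal replicate 2 the list had 14 members higher.

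The other 3 called members were Egr2 (2.20 ± 0.57), a zinc finger transcription factor, the small GTPase Rhob (1.42 ± 0.26) and Rgs1 (1.14 ± 0.17), a regulator of G protein signalling. None of these 3 passed without LPS+DEX replicate 1 (2.01, 1.44 and 1.15) or without replicate 2 (2.39, 1.39 and 1.12). The nuclear receptor Nr4a1, with 0 and 2.63 CPM in basal cells and 11.5 and 8.18 CPM with LPS+DEX, did not pass (2.49 ± 0.70, limma adjusted p = 0.066), but did without basal replicate 2 (3.42). Atf3, a stress-induced repressor, measured 0.49 ± 0.15 (limma adjusted p = 0.089), with 61.8 and 70.4 CPM against 99.2 and 86.7 CPM, and it passed without basal replicate 2 (0.58).

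**Figure D2:**
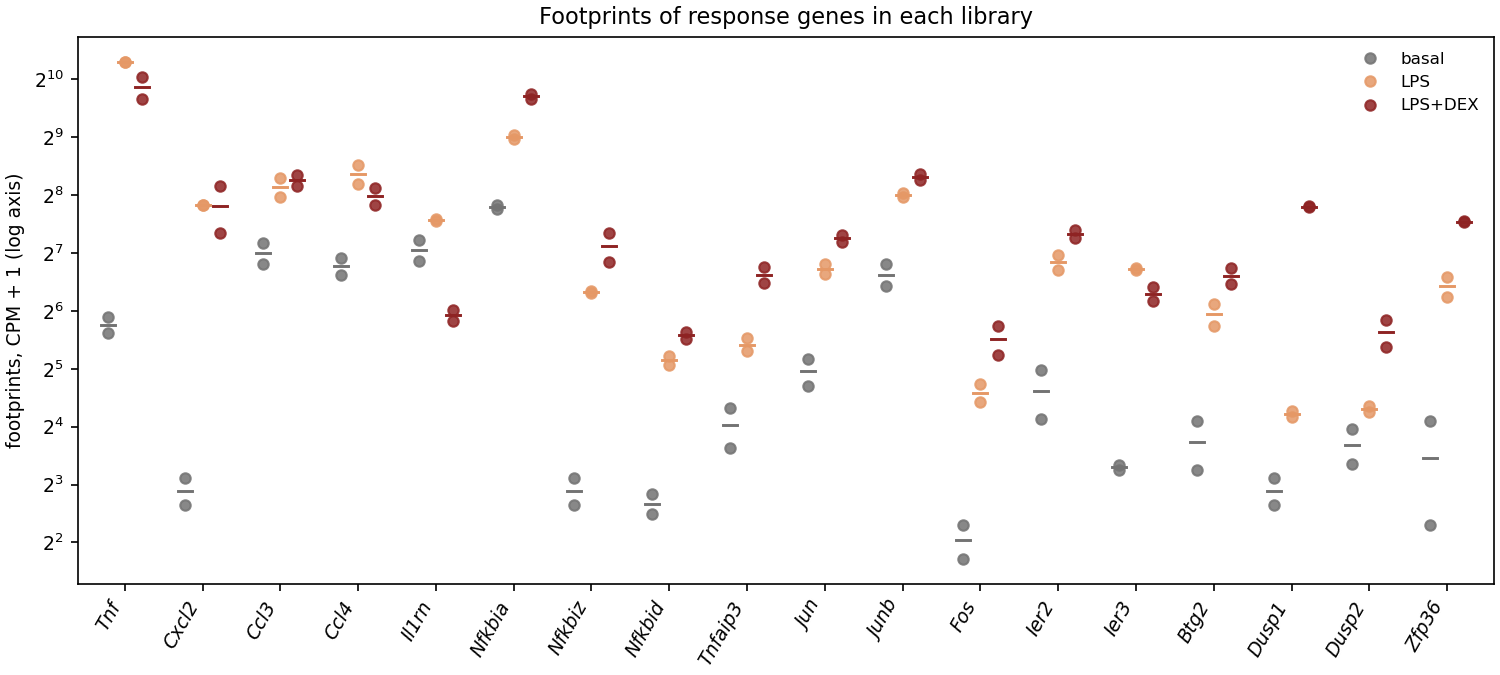
Footprints (CPM + 1, log axis) of 18 response genes in each of the 6 footprint libraries, basal in grey, LPS in orange and LPS+DEX in dark red, with a short line at each group's mean of CPM + 1. Dusp1 and Zfp36 reach 221 to 223 and 184 to 188 CPM with LPS+DEX, above both other groups, and Il1rn is the gene whose LPS+DEX values lie lowest of its 3 groups.

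Feedback inhibitors that glucocorticoids are known to induce rose strongly. Dusp1 (ENSMUSG00000024190) encodes a phosphatase that inactivates MAP kinases. It had 7.63 and 5.26 CPM in basal cells and 223 and 221 CPM with LPS+DEX, a change of 4.92 ± 0.20 (limma adjusted p = 3.1e-08). LPS alone had 16.9 and 18.2 CPM, so the treated pair stood far above either other group. Zfp36 (ENSMUSG00000044786), which encodes tristetraprolin, a protein that marks cytokine mRNAs for decay, went from 16 and 3.95 to 184 and 188 CPM (4.35 ± 0.40), with 74.8 and 94.9 CPM under LPS alone. Dusp2, a second nuclear MAP kinase phosphatase, rose from 14.5 and 9.21 to 40.5 and 56.7 CPM (1.96 ± 0.27), but not past the threshold without LPS+DEX replicate 2 (1.72). Zfp36l2, a relative of Zfp36, rose by 0.76 ± 0.14, a call lost without either LPS+DEX library (0.83 and 0.70). In the MAP kinase feedback list 2 of 12 tested genes rose, and in the list of mRNA decay factors 2 of 24. Their medians were -0.09 and 0.04.

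Dusp1 and Zfp36 belong to a list of the glucocorticoid receptor, its chaperones and known targets, in which few other genes passed at 30 min. Of 26 tested genes of that list 2 rose and 1 fell, and the median change was 0.00. The member that fell was the metallothionein Mt1, which binds zinc (205 and 251 against 120 and 130 CPM, -0.86 ± 0.13, and -0.80 without LPS+DEX replicate 1, where it did not pass). The clock gene Per1, a direct glucocorticoid receptor target, had 29 and 19.7 CPM in basal and 53.2 and 36.5 CPM in LPS+DEX cells. Its change of 0.86 ± 0.25 did not pass (limma adjusted p = 0.071), whereas the fit that left out basal replicate 1 called it, at 1.12. The receptor's co-chaperone Fkbp5 measured 0.23 ± 0.19, the receptor gene Nr3c1 0.21 ± 0.24, the transcription factor Klf9 -0.06 ± 0.36 and Tsc22d3, which encodes the leucine zipper protein GILZ, -0.71 ± 0.38. Nr3c1 itself had 28.2 and 28.3 CPM in basal cells and 41.1 and 26.2 CPM with LPS+DEX, so its footprints were detected in each library.

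Stretches of 2 further promoters are shown for sites of other early regulators, from the same RefSeq windows. The cAMP response element was searched as TGACGTCA and the AP-1 site as TGACTCA.
Dusp1, chr17:26508583-26508640, minus strand, cAMP response element 143 bases before the start: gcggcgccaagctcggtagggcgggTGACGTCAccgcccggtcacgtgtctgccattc
Zfp36, chr7:28379252-28379311, minus strand, serum response element 58 bases before the start: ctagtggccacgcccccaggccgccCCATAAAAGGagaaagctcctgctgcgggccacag
The serum response element was present in 8 of the 133 windows of genes called higher (6.02%), in 2.06% of those called lower, in 1.19% of those tested and in 1.63% of all windows. The cAMP response element was present in 3.76%, 2.06%, 3.19% and 1.79% in that order, and the AP-1 site in 5.26%, 5.67%, 3.27% and 5.2%. The palindromic glucocorticoid response element matched 0 of the 133 windows and 3 of all 32851, which says only that its letters are not in these windows.

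Set against LPS alone instead of basal cells, LPS+DEX had 278 genes higher (3.14% of 8847 tested) and 314 lower (3.55%) in a limma fit of all 6 footprint libraries. This comparison shares the LPS+DEX libraries with the one against basal. Without LPS+DEX replicate 2, 35 were higher and 68 lower, without LPS+DEX replicate 1, 58 and 111, without LPS replicate 1, 169 and 148, and without LPS replicate 2, 157 and 139. Dusp2 measured 1.31 and Zfp36 1.13 (limma adjusted p = 0.015 and 0.098) over LPS alone. Junb, Jun and Fos measured 0.30, 0.52 and 0.91 and did not pass, and neither did Nfkbiz (0.77, limma adjusted p = 0.056).

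Other NF-kB targets moved in both directions. Of 22 tested, 3 rose and 1 fell (median 0.05). Ccrl2, a chemokine-binding surface receptor, went from 1.53 and 1.97 CPM, 2 and 3 reads, to 27.2 and 21.3 CPM (3.19 ± 0.42). Ptgs2, which encodes the prostaglandin-making enzyme COX-2, went from 17.6 and 15.8 to 41.1 and 36 CPM (1.16 ± 0.22). Slfn2, a Schlafen family gene, rose from 19.1 and 21 to 62.3 and 61.6 CPM (1.58 ± 0.19). Clec4d, a C-type lectin receptor, fell from 227 and 216 to 119 and 104 CPM (-0.99 ± 0.12). Slfn2 and Clec4d were called in each leave-one-out fit, whereas Ccrl2 (3.02 and 3.36) and Ptgs2 (1.07 and 1.25) were not called without either LPS+DEX library. Nos2, which encodes the inducible enzyme that makes nitric oxide, was at 19.1 and 8.55 CPM in basal cells and 3.02 and 3.82 CPM with LPS+DEX. Its groups did not overlap, but the basal pair was far apart and the change did not pass (-1.65 ± 0.48, limma adjusted p = 0.071). It passed without basal replicate 2 (-2.19) and in a fit that included the LPS libraries (limma adjusted p = 0.039). Upstream of these genes, 0 of 27 tested genes of the LPS receptor pathway passed in either direction, with a median of -0.16. Among interferon-stimulated genes 0 of 18 passed, with a median of -0.02. At the cell surface the pattern-recognition receptor Tlr2 rose from 162 and 165 to 238 and 243 CPM (0.55 ± 0.11), and the LPS co-receptor Cd14 measured 0.25 ± 0.11 without passing, but was called without basal replicate 2 (0.40). The Tlr2 call was lost without either LPS+DEX library (0.57 and 0.54).

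The integrated stress response showed opposite movements among its own members. This pathway slows initiation by phosphorylating the factor eIF2 while favouring the transcription factor ATF4. Of 29 tested genes 2 rose and 4 fell (median -0.18). Atf4 (ENSMUSG00000042406) fell from 78.6 and 73.7 to 39.3 and 35.5 CPM (-1.01 ± 0.16), and lost its call without LPS+DEX replicate 2 (-0.94). Its target Asns, asparagine synthetase, measured -0.47 ± 0.12 and the amino acid transporter Slc7a5 -0.51 ± 0.13, both called. Ppp1r15a, the stress-induced subunit that directs eIF2 dephosphorylation, rose from 3.05 and 4.60 CPM, 4 and 7 reads, to 15.1 and 16.9 CPM (1.83 ± 0.40). Its constitutive counterpart Ppp1r15b fell by 0.60 ± 0.15, and the eIF2 kinase Eif2ak3 (PERK) rose by 0.99 ± 0.21. Asns and Slc7a5 lost their calls with median-of-ratios scaling (-0.43 and -0.46), and Slc7a5 also without basal replicate 2 (-0.37). Apart from Atf4, these genes did not pass without either LPS+DEX library (Asns -0.59 and -0.35, Slc7a5 -0.49 and -0.52, Ppp1r15a 1.91 and 1.76, Ppp1r15b -0.50 and -0.70, Eif2ak3 0.83 and 1.14).

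Most ribosomal protein genes had small positive values. Of 47 large-subunit genes 6 rose and 0 fell (median 0.17), and of 32 small-subunit genes 3 rose and 3 fell (median 0.15). Rpl31 went from 926 and 1184 to 1558 and 1516 CPM (0.55 ± 0.11), Rpl7 from 1925 and 1920 to 2771 and 2498 CPM (0.45 ± 0.09), and Rps6, the ribosomal target of the S6 kinase, from 1300 and 1296 to 1756 and 1672 CPM (0.40 ± 0.08). In each the groups were apart by more than the spread within them. Rps2 was the opposite case, falling from 801 and 846 to 491 and 522 CPM (-0.70 ± 0.09), with 549 and 465 CPM under LPS alone. Rps2 overlaps small nucleolar RNA genes in RefSeq, and ribosomal protein genes have processed pseudogenes, so their counts are uncertain where copies share reads. Among elongation factors and further mRNAs with a terminal oligopyrimidine start, 4 of 22 rose and 1 fell (median 0.16). The elongation factors Eef1a1 (10449 and 11308 against 13453 and 14228 CPM) and Eef2 (2710 and 2596 against 3547 and 3667 CPM) rose by 0.35 ± 0.08 and 0.44 ± 0.08. All 9 of the ribosomal genes called higher and these 4 lost their calls without LPS+DEX replicate 1 and without replicate 2, while the medians of the 3 lists stayed between 0.14 and 0.20 in those 2 fits. Without basal replicate 1, 13 large-subunit and 7 small-subunit genes were higher, and without basal replicate 2, 16 and 9. Rps2 was called in each leave-one-out fit.

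Mitochondrially encoded genes were lower with LPS+DEX. Of the 13 protein genes of the mitochondrial genome 8 fell and 0 rose, with a median of -0.64, and 12 of the 13 values were below 0. Cytochrome b of complex III, mt-Cytb (ENSMUSG00000064370), fell from 526 and 779 to 197 and 202 CPM (-1.68 ± 0.15, limma adjusted p = 2.9e-05). The ATP synthase subunits mt-Atp6 (548 and 523 against 214 and 182 CPM) and mt-Atp8 (369 and 334 against 134 and 118 CPM) fell by 1.44 ± 0.11 and 1.48 ± 0.12. These 3 genes were the members called in every leave-one-out fit. The complex I subunit mt-Nd1 fell from 103 and 75 to 39.3 and 28.4 CPM (-1.37 ± 0.20), mt-Nd5 by 0.96 ± 0.13, and the 3 cytochrome oxidase subunits mt-Co1, mt-Co2 and mt-Co3 by 0.64, 0.60 and 0.59. Without LPS+DEX replicate 2 only 3 members passed (median -0.60) and without LPS+DEX replicate 1 5 passed (median -0.82), and the mt-Co1 call was also lost with median-of-ratios scaling (-0.59).

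The summed level of the 13 genes was 4111 and 3653 CPM in basal cells, 2168 and 1897 CPM with LPS+DEX, and 8681 and 9481 CPM with LPS alone. So the 3 treatments did not overlap, and LPS alone lay on the other side of basal. Within the list the fall was uneven. The complex I subunit mt-Nd3 had 65.6 and 81.5 CPM against 85.9 and 71.4 CPM (0.10 ± 0.16), and mt-Nd4l measured -0.28 ± 0.23. Leaving the mitochondrial genes out of the library totals changed the calls among nuclear genes to 151 higher and 248 lower of 8729. Nuclear subunits of the same complexes showed small changes: 0 rose and 2 fell of 36 in complex I (median -0.16), 0 of 4 in complex II, and 0 rose and 3 fell of 34 in complexes III to V (median -0.09). Ndufa12 of complex I fell from 456 and 351 to 204 and 217 CPM (-0.92 ± 0.13) and Atp5c1, the gamma subunit of ATP synthase, by 0.68 ± 0.09, a call that did not hold without LPS+DEX replicate 1 (-0.62).

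**Figure D3:**
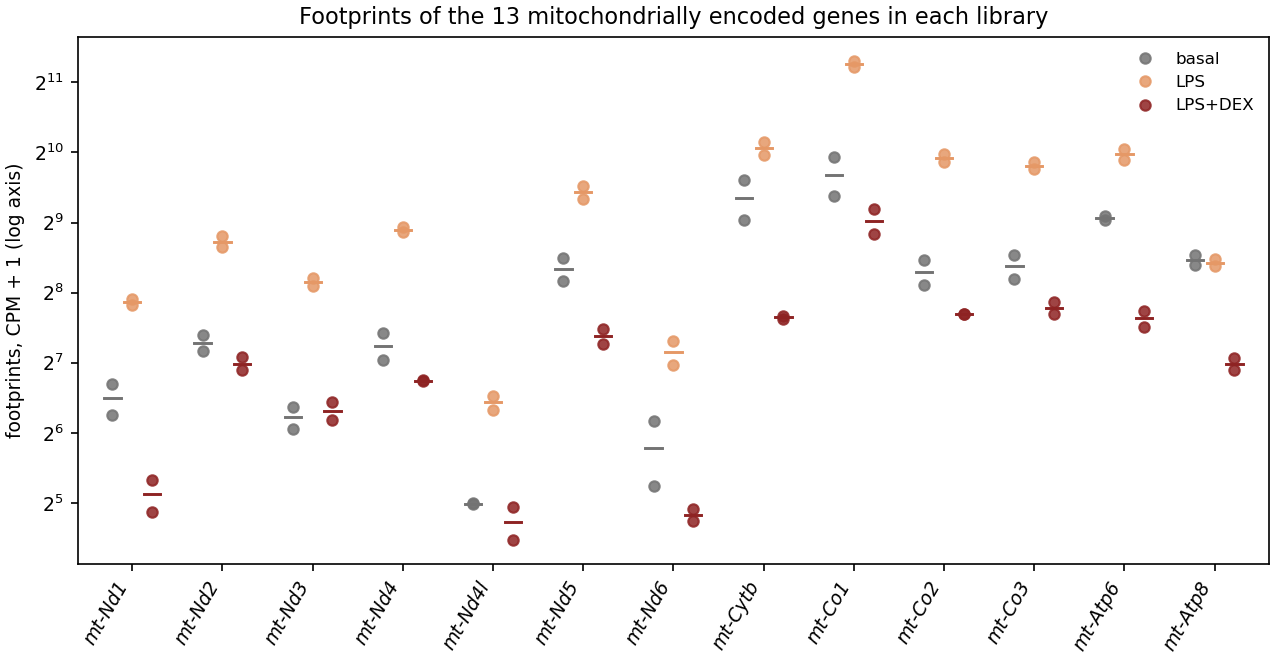
Footprints (CPM + 1, log axis) of the 13 mitochondrially encoded genes in each of the 6 footprint libraries, basal in grey, LPS in orange and LPS+DEX in dark red, with a short line at each group's mean of CPM + 1. LPS+DEX lies below basal for mt-Cytb, mt-Atp6 and mt-Atp8 and overlaps it for mt-Nd3, and LPS alone lies above LPS+DEX in each of the 13 genes.

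Enzymes of glycolysis, lysosomal proteins and ER chaperones held more called members lower than higher. In glycolysis 5 of 23 fell and 1 rose (median -0.15). Triosephosphate isomerase, Tpi1, fell from 1201 and 1366 to 901 and 814 CPM (-0.58 ± 0.10) and Pgk1 from 952 and 945 to 716 and 656 CPM (-0.47 ± 0.09), while the inducible hexokinase Hk2 rose from 203 and 162 to 276 and 275 CPM (0.60 ± 0.12). Among lysosomal genes 6 of 45 fell and 1 rose (median -0.12), led by the cathepsins Ctsk (-0.60 ± 0.15), Ctsl (-0.51 ± 0.11) and Ctsd (3144 and 2954 against 2257 and 2213 CPM, -0.45 ± 0.08). Among ER chaperones 3 of 21 fell and 0 rose, with 20 of 21 values below 0 (median -0.20). They were Manf, Pdia6 and Canx, at -0.45, -0.39 and -0.37, while the main ER chaperone Hspa5 measured -0.10 ± 0.09. All of the calls in these 3 lists were lost without LPS+DEX replicate 1 and without replicate 2. The list medians in these fits were -0.06 and -0.10 for glycolysis, -0.07 and -0.17 for lysosomal genes, and -0.31 and -0.14 for ER chaperones. With median-of-ratios scaling 4, 3 and 1 members fell. Without basal replicate 1, 13 lysosomal genes and 6 ER chaperones fell, and without basal replicate 2, 8 and 7. Of the macrophage markers, the lectin Lgals3 fell from 1046 and 1204 to 696 and 699 CPM (-0.69 ± 0.10) and the scavenger receptor Msr1 by 0.57 ± 0.14, and the other 13 tested markers did not pass. Without basal replicate 1, Cd68, Lyz2 and Spi1 were called lower (-0.30, -0.28 and -0.36). Lgals3 was not called without LPS+DEX replicate 2 (-0.69), nor Msr1 without either LPS+DEX library (-0.67 and -0.48) or with median-of-ratios scaling (-0.53).

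Cytoskeletal and heat shock genes included few called members. Of 37 tested cytoskeletal genes 2 rose and 1 fell, with a median of 0.09. Profilin, Pfn1, fell from 1684 and 1870 to 1134 and 1200 CPM (-0.60 ± 0.09), and non-muscle myosin, Myh9, rose from 743 and 633 to 993 and 947 CPM (0.50 ± 0.10). Actb measured 0.02 ± 0.10. The constitutive chaperone Hspa8 rose from 4486 and 4760 to 6516 and 6470 CPM (0.49 ± 0.08), the only called member of 26. Pfn1 (-0.56 and -0.65), Myh9 (0.47 and 0.53) and Hspa8 (0.49 and 0.50) did not pass without either LPS+DEX library. Of 29 replication genes 0 passed and of 40 mitotic genes 2 were called higher and 2 lower. All 4 of these mitotic calls were lost without LPS+DEX replicate 1 and without replicate 2, and the 2 lower ones with median-of-ratios scaling. Without basal replicate 2, 2 replication genes were higher and 1 lower.

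Replication-dependent histones package newly copied DNA, and their genes are near-identical copies that share reads, so single members are uncertain. The number called is therefore not a number of independent members. Of 59 members 28 fell and 0 rose (median -0.44), with the H2B genes at the low end: Hist1h2bf went from 608 and 774 to 300 and 321 CPM (-1.14 ± 0.12) and Hist1h2br from 1149 and 1459 to 565 and 644 CPM (-1.10 ± 0.12). The linker histones Hist1h1a and Hist1h1d measured -0.37 and -0.34, and both calls were lost with median-of-ratios scaling (-0.33 and -0.30) and without either LPS+DEX library (-0.35 and -0.39, and -0.32 and -0.37). The summed histone footprints were 35216 and 45688 CPM in basal, 27803 and 30084 CPM in LPS+DEX and 30813 and 28928 CPM in LPS libraries, so the basal pair differed by more than the treated pairs. The number of calls followed the basal library that was kept: 48 fell without basal replicate 1, 26 fell and 5 rose without basal replicate 2, and the medians were -0.64 and -0.26. Without LPS+DEX replicate 1 or 2, 9 and 10 fell. Whether the difference between the basal libraries has a part in the result was not tested.

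**Figure D4:**
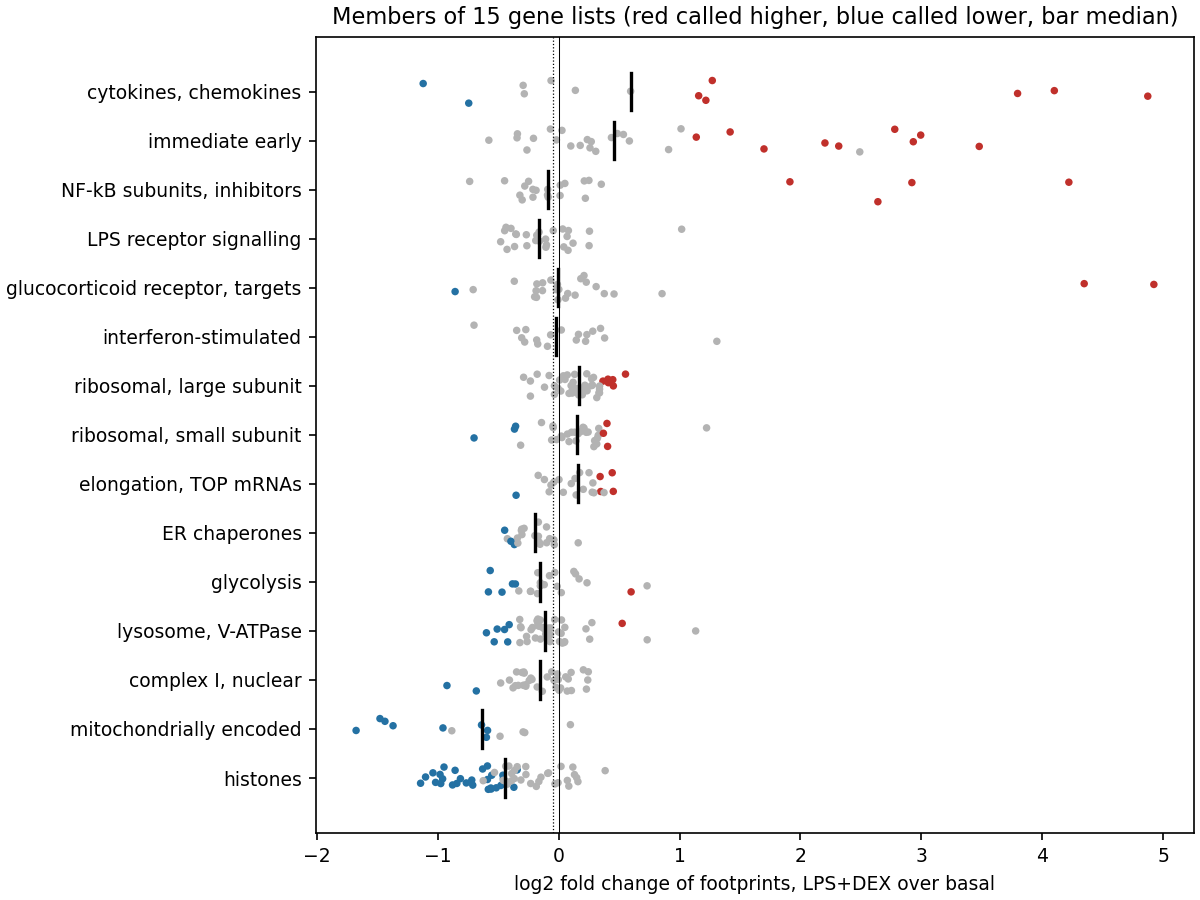
Each dot is 1 tested member of 1 of 15 gene lists, placed at its log2 fold change of footprints (LPS+DEX over basal), red where called higher and blue where called lower; vertical bars are list medians and the dotted line is the median of all tested genes (-0.05). Cytokines and immediate early genes reach above 3, and mitochondrially encoded genes and histones have medians of -0.64 and -0.44.

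Several of the largest changes fell on genes that belong to none of the lists. Of the 12 called genes with the highest fold change, 7 were list members (Dusp1, Cxcl2, Zfp36, Nfkbiz, Tnf, Cxcl3 and Fos), and the other 5 were Acp4, Best3, Actr5, Neurl4 and Tspan1. Actr5 (ENSMUSG00000037761), which encodes a subunit of the INO80 chromatin remodeller, had 2958 and 176 CPM in basal cells and 10436 and 12839 CPM with LPS+DEX. The basal libraries were far apart, and the call (SE 0.82) was lost without either LPS+DEX library, where the change was 4.15 and 3.85. Its mRNA held 59.7 and 121 CPM in LPS+DEX cells, and the gene overlaps the microRNA gene Mir3474 in RefSeq. Neurl4 (ENSMUSG00000047284), a centriolar protein gene, went from 85.5 and 76.3 to 1499 and 945 CPM (3.87 ± 0.17) against mRNA of 90.9 and 90.8 CPM. LPS alone had 256 and 93.7 CPM. Acp4, an acid phosphatase gene that overlaps another gene, had 28.2 and 1.97 against 576 and 184 CPM (5.13 ± 0.76, and 4.31 without LPS+DEX replicate 1, where it was not called). Best3, a bestrophin chloride channel gene that also overlaps another gene, had 6.87 and 1.97 against 182 and 117 CPM (4.93 ± 0.38), with 135 CPM in both LPS libraries. Tspan1, a tetraspanin gene, had 23.7 and 3.95 against 171 and 97.6 CPM (3.56 ± 0.53, and 3.16 without LPS+DEX replicate 1, where it was not called).

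The 12 called genes with the lowest fold change contained no list member. Cdan1 (ENSMUSG00000027284), the codanin gene, which overlaps Stard9, fell from 347 and 603 to 67.7 and 55.1 CPM (-2.88 ± 0.20). Sh3rf1, a ubiquitin ligase gene that overlaps 5 others in RefSeq, had 280 and 65.1 against 13.3 and 6.54 CPM, and Evl, an actin regulator gene that overlaps the microRNA gene Mir342, had 76.3 and 29.6 against 1.81 and 1.64 CPM. H2-M10.2 had 93 reads in the basal libraries together and 3 in the LPS+DEX libraries, a ratio of 38.2 with a 95% counting interval of 12.7 to 189. Gpr20 had 75 and 2 reads, a ratio of 46.2 (12.4 to 388). Lrriq1 and 5830411N06Rik had 39 and 47 reads in basal and 0 in LPS+DEX cells, which is at least 16.0-fold and at least 19.3-fold lower against a floor of 3 reads over the group. The others were 4933412E24Rik, F8, Reep2, Apol10a and Zfp536. Reep2 lost its call without basal replicate 1 and without either LPS+DEX library (-2.25 to -3.45), and Apol10a without LPS+DEX replicate 1 (-2.21).

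Many of these outer genes had a footprint level far above the mRNA level. Footprints in the higher group exceeded 10 times the mRNA CPM of the same treatment in 9 of the 12 lowest and 4 of the 12 highest genes. Over all called genes it was 53 of the 253 lower (20.9%) and 12 of the 158 higher (7.59%), against 141 of the 8742 tested genes (1.61%). The 253 lower genes include 28 replication-dependent histones, such as Hist1h1d (basal means of 1136 CPM in footprints and 3.66 CPM in mRNA) and Hist1h4d (1180 and 0.81 CPM). How many of the 53 are histones was not counted. The mRNA libraries were made from polyadenylated mRNA, and whether this has a part in the histone proportions was not tested. Some abundant footprints were lower in both treated libraries than in both basal ones. Mfge8 (ENSMUSG00000030605), which encodes a secreted bridge between dying cells and phagocytes, had 1622 and 1434 CPM in basal and 421 and 309 CPM in LPS+DEX footprints (-2.08 ± 0.13), with mRNA between 14.1 and 28.9 CPM. Nob1 (ENSMUSG00000003848), the nuclease that matures the small ribosomal subunit, was under that ratio and went from 456 and 508 to 99.2 and 100 CPM (-2.26 ± 0.11), with 92.8 and 82.7 CPM under LPS alone and mRNA between 71.2 and 103 CPM. Pcnx4 went from 881 and 485 to 131 and 92.7 CPM (-2.56 ± 0.22), with mRNA between 14.6 and 20.6 CPM. Under LPS alone Mfge8 had 510 and 512 CPM and Pcnx4 had 242 and 173 CPM. These 3 genes were called in every leave-one-out fit. Mfge8 and Pcnx4 were chosen after their values were seen. Among genes with ordinary footprint to mRNA proportions, the mitophagy receptor Bnip3 fell from 49.6 and 48 to 15.1 and 14.7 CPM (-1.65 ± 0.21), carbonic anhydrase Car2 rose from 164 and 170 to 290 and 331 CPM (0.89 ± 0.11), and the transcriptional co-regulator Cited2 rose from 206 and 251 to 474 and 448 CPM (1.02 ± 0.11). Those 3 were also chosen after their values were seen.

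The mRNA libraries of the same 2 treatments give the level behind the footprints. They held 1475120 and 1847359 reads (basal) and 2529666 and 2256871 reads (LPS+DEX). Basal replicate 1 stood apart: it held 1108 CPM of Krt7, 402 CPM of Ren1 and 923 CPM of Ddr1, against 0, 0 and 2.17 CPM in basal replicate 2. The change of footprints relative to mRNA (translational efficiency, TE) was tested as an interaction in a limma fit of the 8 libraries. Limma called 205 of 9369 genes higher in TE (2.19%) and 1045 lower (11.2%), and the median was -0.34. Median-of-ratios scaling moved the median to -0.03 and the calls to 423 higher and 303 lower, so TE changes are read relative to that shift. Without mRNA basal replicate 1 the numbers were 227 and 923, and without footprint LPS+DEX replicate 1 they were 1 and 2. Leaving out footprint LPS+DEX replicate 2 gave 41 and 181, footprint basal replicate 1 gave 102 and 355, and footprint basal replicate 2 gave 67 and 282. Leaving out mRNA basal replicate 2 gave 409 and 1569, mRNA LPS+DEX replicate 1 gave 99 and 400, and mRNA LPS+DEX replicate 2 gave 264 and 840.

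For Tnf, Zfp36, Fos and Dusp1 no TE change passed. Tnf mRNA rose from a mean of 83.8 to 1319 CPM, a log2 difference of 3.95 beside the footprint change of 4.10 (TE 0.15 ± 0.25). Zfp36 had 4.29 in mRNA and 4.35 in footprints, Fos 3.58 and 3.48, and Dusp1 3.96 and 4.92 (TE 0.97 ± 0.60, limma adjusted p = 0.31). The Dusp1 value depended on the mRNA basal library kept. It was 1.80 and called without mRNA basal replicate 2, and 0.13 and not called without mRNA basal replicate 1. Other early genes rose less in footprints than in mRNA. Jun had 3.78 in mRNA and 2.32 in footprints (TE -1.46 ± 0.26), Junb 3.14 and 1.70 (TE -1.45 ± 0.22), Tnfaip3 4.55 and 2.64 (TE -1.90 ± 0.36) and Nfkbia 2.72 and 1.91 (TE -0.81 ± 0.15), and these 4 TE changes passed. Of 30 immediate early genes 10 were lower and 0 higher in TE (median -0.87, and 6 lower with a median of -0.59 under median-of-ratios scaling). TE was also lower for Per1, with 22.8 and 184 CPM of mRNA in the means of basal and LPS+DEX cells (TE -2.13 ± 0.37), the proteoglycan Sdc4, with 24.9 and 226 CPM (TE -2.76 ± 0.26), and Actb, with 873 and 2875 CPM (TE -1.69 ± 0.17). Of these 7 genes Sdc4 was called in every TE fit run. Without footprint LPS+DEX replicate 1 the other 6 did not pass (Jun -1.52, Junb -1.50, Tnfaip3 -2.04, Nfkbia -0.85, Per1 -2.39 and Actb -1.71). Without footprint LPS+DEX replicate 2 Jun, Tnfaip3, Nfkbia and Per1 did not (-1.40, -1.77, -0.77 and -1.86), and Nfkbia was also lost without footprint basal replicate 2 (-0.78) and with median-of-ratios scaling (-0.49). Without footprint LPS+DEX replicate 1, 0 of the immediate early genes passed in TE (median -0.94), and without footprint LPS+DEX replicate 2, 1 was lower (median -0.83). Leaving out footprint basal replicate 1, footprint basal replicate 2 or mRNA LPS+DEX replicate 1 left 5, 6 and 5 lower.

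Ribosomal protein genes had the reverse arrangement, with small positive changes in footprints and negative ones in mRNA. Of 47 large-subunit genes 29 were higher in TE and 0 lower, with a median of 0.63 and a median mRNA difference of -0.49. Of 32 small-subunit genes 16 were higher and 1, Rps2, was lower (median 0.46), a call lost with median-of-ratios scaling (-0.37) and without footprint LPS+DEX replicate 1 (-0.65), LPS+DEX replicate 2 (-0.74) or basal replicate 2 (-0.66). Rpl31 had 3278 and 2063 CPM of mRNA in the 2 group means while its footprints rose (TE 1.23 ± 0.18), and Rps6 had 3410 and 2267 CPM (TE 0.99 ± 0.11). With median-of-ratios scaling 44 and 26 members were higher, and without mRNA basal replicate 1 26 and 15 were. Without footprint LPS+DEX replicate 1, 0 passed in either list (medians 0.64 and 0.46), and without footprint LPS+DEX replicate 2 11 and 5 were higher. Without footprint basal replicate 1, 20 and 10 were higher, and without footprint basal replicate 2, 18 and 9. A C followed by 4 pyrimidines, the terminal oligopyrimidine feature, was searched at the exact annotated start only. It was present in 13 of 71 RefSeq promoter windows of ribosomal protein genes (18.3%) and in 2.51% of all windows. A window whose annotated start differs from the start in use can be missed. These shares therefore do not give how many of the genes have the feature. For mitochondrially encoded genes the median mRNA difference was -0.99, beside the footprint median of -0.64, and 1 of 13 passed in TE (mt-Nd3, 1.63, limma adjusted p = 0.019), a number that was 0 in each fit that left out a footprint library or mRNA LPS+DEX replicate 1, 2 without mRNA basal replicate 1, 4 without mRNA LPS+DEX replicate 2 and 3 with median-of-ratios scaling.

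**Figure D5:**
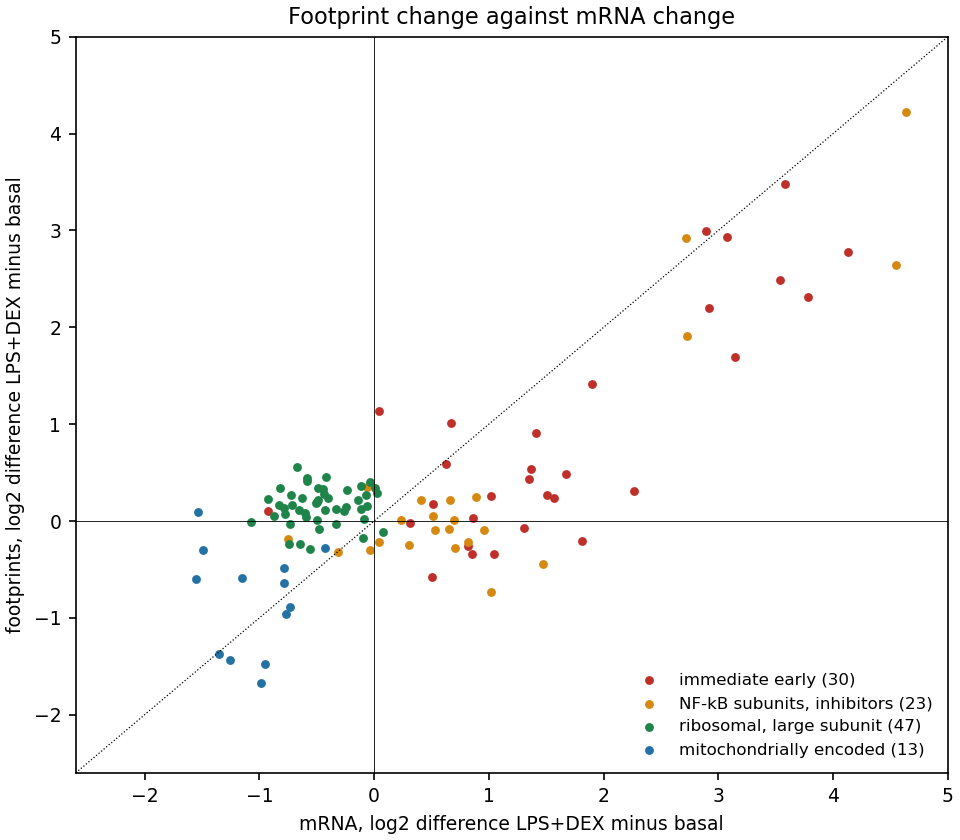
Each dot is 1 gene, with its mRNA difference (LPS+DEX minus basal, log2) on the x axis and its footprint difference on the y axis, for 4 gene lists in colour; the dotted line marks equal change. Immediate early genes lie mostly to the right of 0 and under the line, and large-subunit ribosomal genes lie mostly left of 0 in mRNA and mostly above 0 in footprints.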

How the data were processed

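The authors deposited 1 table per library with a value for each Ensembl gene. No label or header names the unit. The values the authors deposited read as CPM plus 1: after subtracting 1, all were whole multiples of 1 read within a tolerance of 0.1 read. How the authors aligned and counted reads to make these CPM values, and with which build, annotation and strand setting, is not stated in the labels' protocols. Those protocols describe no molecular identifiers, so counting intervals and floors cover counting error only. The listed genes held 97.4% to 98.9% of the reads of a library, and 9521 of 9621 identifiers matched a symbol.

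Limma 3.58.1 in R 4.3.3 (trend) was fitted to log2(CPM + 1) of the 4 footprint libraries with treatment as the only factor, and p values were adjusted by Benjamini-Hochberg over all tested genes. Changes are relative to the library total and understate those of genes near 0. The script was tested on simulated data. Members of a pair differed beyond sampling noise in each group, so none was counted as a repeat deposit. The 39 gene lists, the named genes and the comparison itself were chosen with earlier results of these data known. Named genes were the 12 highest and 12 lowest called with a mean of at least 10 reads in the higher group, up to 4 called per list, and a fixed set of 47, of which 3 (Il1a, Myc and Sgk1) are not analysed here; others were chosen after their values were seen. Groups of 2 limit the precision of each SE. The mRNA libraries of LPS alone were not used here. Results of some genes are not reported here.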

Additional observations from a re-analysis of the deposited data

How the results depend on the processing

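For LPS+DEX against basal footprints, the counts of genes called higher and lower stayed within 1.5 times 158 and 253 with log2(CPM + 2), log2(CPM + 0.5), median-of-ratios scaling, the total of nuclear genes only, no filter, a filter of 30 reads, limma-voom on recovered reads and a fit of all 6 footprint libraries. With the replicate number as a block (replicate block) 307 were higher and 465 lower; the labels do not say what the number shares, and deviations of same-numbered libraries correlated at 0.12 across genes. In that fit Per1, Nos2, Ccl2, Atf3, Id3, Nr4a1, Ftl1, mt-Nd4 and mt-Nd6 also passed. Leaving out 1 library gave 30 to 392 higher and 58 to 467 lower. Against LPS alone, the range was 35 to 414 higher and 68 to 462 lower, and for TE 1 to 409 higher and 2 to 1569 lower. TE with median-of-ratios scaling had 423 higher and 303 lower. The fits that left out a treated library took their spread from the basal pair alone and assume that the lone library varies likewise; the cause of lost calls was not tested. At this depth a gene of 10 reads is worth 6.30 CPM, and changes of genes near that level rest on few reads. With no filter Canx, Pdia6, Ctsk, Eef1a1, mt-Co1, Asns and Hist1h1d were no longer called and Nr4a1 was, with a filter of 30 reads Canx and mt-Co1 were lost, with log2(CPM + 0.5) Egr2, and with limma-voom Reep2 was lost and Nr4a1 was called.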
